A study of Mus musculus with 15 samples.

Results

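The genes described here are 8 transcripts of vascular endothelium measured by RNA sequencing in the mouse optic nerve. They are Plvap, Rhoj, Cdh5, Flt1, Egfl7, Pecam1, Cldn5 and Kdr, taken by gene symbol from a table of 14237 genes, of which 14194 had enough counts to be tested, all 8 among them. The 8 were chosen from earlier results on these same 15 libraries. Their levels and differences between groups are therefore given as a description, without p-values, and nothing is supported with them. Where a member is said to be called or to pass a threshold, that too only describes the libraries it was chosen on. For the members, p-values are given only for correlations among libraries within groups. Every nerve came from an adult C57BL/6J mouse whose eye had received an AAV2 (adeno-associated virus, serotype 2) injection into the vitreous. The sham group (5 libraries) received AAV-null, without a CNTF transgene, and had the nerve exposed and left uncrushed. The crush AAV-null group (5 libraries) received AAV-null 2 weeks before the nerve was crushed, and the crush AAV-CNTF group (5 libraries) received a virus expressing a secretable form of CNTF, ciliary neurotrophic factor, 2 weeks before the crush. Nerves of both crush groups were collected 7 days after the crush, and the labels give no times for the sham group. The design names the 5 libraries of a group as biological replicates. Whole nerves were sequenced, so fewer endothelial cells and less RNA per cell cannot be told apart in any value below.

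Endothelial cells of the optic nerve, like those of the brain, form a barrier: tight junctions seal the cells to each other, few vesicles cross them, and dedicated transporters carry nutrients. Where endothelium is fenestrated or leaky, PLVAP forms the diaphragms that span fenestrae, caveolae and transendothelial channels, and the PLVAP transcript is low in barrier endothelium and high in vessels outside the barrier. VEGF acts on endothelium through KDR (VEGFR2), the main signalling receptor, and FLT1 (VEGFR1), which binds VEGF tightly and in its soluble form withholds it. RHOJ is a small GTPase related to CDC42 that is enriched in endothelium and acts in actin remodelling and vessel sprouting.

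Library totals ran from 19856688 to 29558293 expected counts, the estimate of fragments per gene that the RSEM program gives. Levels are given as CPM, the count of a gene scaled to a common library size (cpm of edgeR) with library sizes corrected by the trimmed mean of M-values. In a principal component analysis crush AAV-null replicate 6 stood apart on the second component, at 99.7 against -24 to 9 for the other libraries. Where a result below rests on that library, its value without it is given. Of 30 further endothelial markers 28 were tested and their summed level ran from 876 to 1131 CPM in the sham group, 838 to 1231 CPM in the crush AAV-null group and 879 to 1363 CPM in the crush AAV-CNTF group. These 3 ranges overlap. The nerve's own cells were present as labelled: 10 glial genes of the optic nerve, myelin genes among them, summed to 51570 to 64320 CPM in the sham group and to 18480 to 31000 CPM after crush.

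Levels were compared between the 8 genes by the deposited FPKM, which divides by gene length and which is used here to set genes, not groups, side by side. Rhoj was the most abundant per length in all 3 groups, at 31.2 ± 3.23 FPKM (SD, n = 5) in sham, 52.5 ± 12.8 FPKM in crush AAV-null and 83.9 ± 15.4 FPKM in crush AAV-CNTF. Cdh5 ranked next in each group and Kdr was last, at 2.91 ± 0.390 FPKM, 4.39 ± 0.442 FPKM and 5.67 ± 1.79 FPKM. Plvap and Flt1 moved in opposite directions in this order: Plvap had rank 7 in sham (6.63 ± 1.47 FPKM), rank 4 in crush AAV-null (10.8 ± 2.57 FPKM) and rank 3 in crush AAV-CNTF (31.4 ± 9.83 FPKM). Flt1 had rank 3, 6 and 7, at 14.7 ± 2.53, 9.42 ± 2.29 and 10.3 ± 1.86 FPKM. In crush AAV-null the libraries of Plvap (7.83 to 13.2 FPKM) and Flt1 (6.50 to 12.1 FPKM) overlapped, so their order there is of means only. Between the first pair and Kdr, the sham means of Flt1 (14.7 FPKM), Egfl7 (14.2 FPKM), Cldn5 (13.5 FPKM) and Pecam1 (10.8 FPKM) had library ranges that overlapped. The length that FPKM divides by is itself estimated per library from the mix of isoforms. Relative to the library's median gene it was nearly constant for Plvap, Cldn5, Flt1 and Kdr, with a highest over lowest ratio of 1.05, 1.05, 1.10 and 1.12 over the 15 libraries. It varied more for Cdh5 (1.53), Rhoj (1.79), Pecam1 (1.91) and Egfl7 (2.76), against a median of 1.54 over 10788 genes with at least 50 counts in every library. FPKM levels of those 4 genes therefore carry this variation, and the changes below are given in CPM, which does not divide by length.

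Plvap was the member with the largest difference between AAV-CNTF and AAV-null after crush. The gene lies on chromosome 8 at 71497765 to 71511752 (GRCm38, minus strand). In sham nerves, replicates 2 to 6 in turn, Plvap was at 14.1, 13.4, 16.5, 9.81 and 10.3 CPM. In crush AAV-null nerves it was at 22.9, 13.7, 22.1, 20.8 and 13.5 CPM, so that 3 of 5 libraries lay above all sham libraries and the other two among them. In crush AAV-CNTF nerves it was at 79.6, 34.9, 45.1, 56.1 and 53.0 CPM. All 5 lay above all 10 other libraries, and replicate 2 was the highest. On the log2 scale crush with AAV-null exceeded sham by 0.54 ± 0.22 (SE of the edgeR fit over all genes), AAV-CNTF exceeded AAV-null after crush by 1.53 ± 0.22, and crush with AAV-CNTF exceeded sham by 2.07 ± 0.22. The group means, 12.8 ± 2.77, 18.6 ± 4.62 and 53.7 ± 16.6 CPM (SD, n = 5), differ 2.89-fold between the 2 crush groups and 4.20-fold between crush AAV-CNTF and sham. Leaving out each of the 15 libraries in turn gave 1.35 to 1.65 for AAV-CNTF against AAV-null. The 3' end of Plvap overlaps Gtpbp3, a mitochondrial tRNA-modifying enzyme gene on the opposite strand, and the sources used here do not say whether counting used strand. Gtpbp3 was at 8.39 ± 2.03, 7.23 ± 1.54 and 6.20 ± 3.17 CPM in the 3 groups, with no difference past the threshold in any comparison (lowest adjusted p = 0.396, edgeR).

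Rhoj was the other member that AAV-CNTF nerves held at a higher level than AAV-null nerves after crush past the threshold used here, an adjusted p of 0.05 by edgeR over all genes tested. It spans chromosome 12, 75308322 to 75401456 (plus strand). Sham nerves had 75.2, 60.6, 73.8, 68.0 and 67.1 CPM, within a narrow band. Crush AAV-null nerves had 94.7, 83.1, 74.3, 81.2 and 115 CPM, and replicate 6, the library that stands apart, was the highest of them. Crush AAV-CNTF nerves had 146, 148, 140, 118 and 150 CPM. All 5 lay above all other libraries, though replicate 5 exceeded the highest crush AAV-null library by only a small margin. The log2 differences were 0.38 ± 0.11 for crush AAV-null against sham, 0.65 ± 0.11 for AAV-CNTF against AAV-null after crush (1.57-fold), and 1.03 ± 0.12 for crush AAV-CNTF against sham (2.04-fold). Without crush AAV-null replicate 6 the difference from sham was 0.27 and no longer passed adjusted p 0.05. The AAV-CNTF against AAV-null difference of Rhoj ranged from 0.58 to 0.75 over the 15 leave-outs. It passed the threshold in 5 of them, which left out replicate 3 or 5 of sham, replicate 6 of crush AAV-null, or replicate 5 or 6 of crush AAV-CNTF. It did not pass when any 1 of the other 10 libraries was left out.

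**Figure D1:**
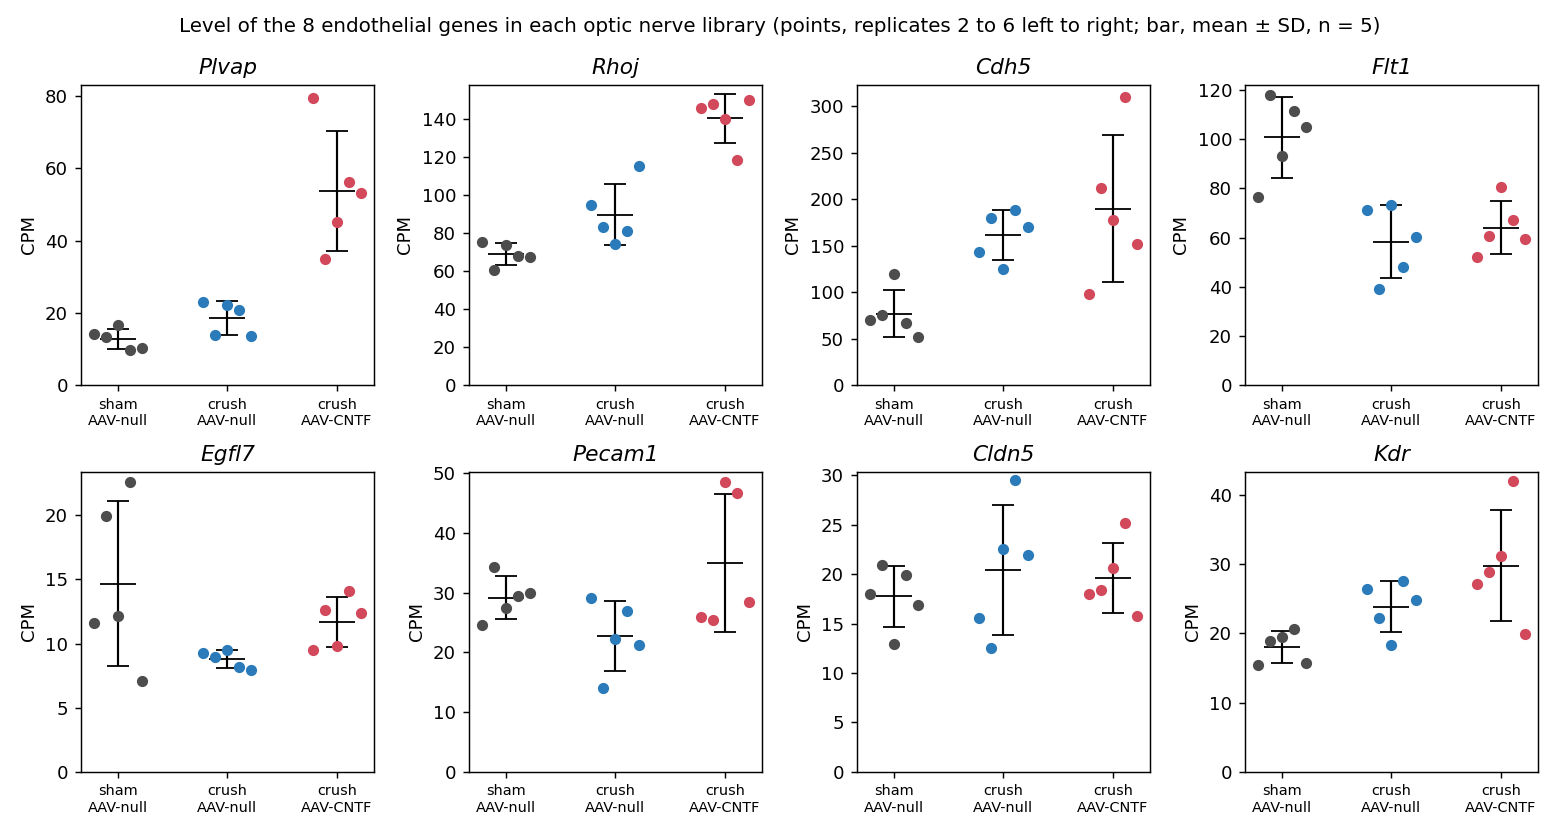
Level of each of the 8 genes in CPM (vertical axes, from 0) by group (horizontal axes), points being libraries and bars the mean ± SD of 5. All 5 crush AAV-CNTF points lie above the other groups for Plvap and Rhoj, all 5 sham points lie above crush AAV-null for Flt1 and below it for Cdh5, and the 3 groups overlap for Cldn5.

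Of the 3 members of endothelial junctions and cell contacts, Cdh5 was higher after crush than in sham, and Cldn5 and Pecam1 passed the threshold in no comparison. Cdh5 encodes VE-cadherin, the adhesive protein of endothelial adherens junctions (chromosome 8, 104101625 to 104144511, plus strand). It was at 70.4, 74.9, 120, 67.2 and 51.9 CPM in sham, and at 143, 180, 125, 189 and 171 CPM in crush AAV-null, with no overlap. In crush AAV-CNTF nerves it spread widely, at 98.2, 212, 178, 310 and 151 CPM, and replicate 2 fell within the sham range. Cdh5 was higher by 1.07 ± 0.24 (log2) in crush AAV-null than in sham, 2.11-fold in the means, and by 1.31 ± 0.24 in crush AAV-CNTF than in sham. AAV-CNTF and AAV-null after crush differed by 0.23 ± 0.23, and by -0.02 without crush AAV-CNTF replicate 5, the library with the highest Cdh5. The annotation places an antisense gene, Gm29682, over Cdh5 on the other strand.

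Cldn5 encodes claudin-5, the most abundant claudin of barrier endothelium, and is a short gene on chromosome 16 (18776847 to 18778262, plus strand). Its level was 18.0, 21.0, 12.9, 20.0 and 16.9 CPM in sham nerves. Crush AAV-null nerves had 15.6, 12.5, 22.6, 29.5 and 21.9 CPM, and crush AAV-CNTF nerves 18.0, 18.4, 20.6, 25.2 and 15.7 CPM. The groups overlapped throughout, and the log2 differences were 0.20 ± 0.22, -0.06 ± 0.21 and 0.14 ± 0.22 in the order used above. Pecam1 encodes CD31, an adhesion molecule of endothelial cell contacts that platelets and some leukocytes also carry (chromosome 11, 106654217 to 106750628, minus strand). Its level was 24.6, 34.3, 27.5, 29.5 and 30.0 CPM in sham, and 29.0, 14.0, 22.3, 26.9 and 21.3 CPM in crush AAV-null. Crush AAV-CNTF nerves had 25.9, 25.4, 48.6, 46.7 and 28.5 CPM, with replicates 4 and 5 well above the rest. The log2 differences of Pecam1 were -0.36 ± 0.21, 0.62 ± 0.21 and 0.26 ± 0.21, and no comparison passed the threshold.

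Of the pair of VEGF receptors, Flt1 was lower in both crush groups than in sham, and Kdr was higher in crush AAV-CNTF than in sham. Flt1 (chromosome 5, 147561604 to 147726011, minus strand) was at 76.5, 118, 93.2, 112 and 105 CPM in sham nerves and at 71.2, 39.2, 73.1, 48.1 and 60.5 CPM in crush AAV-null nerves, with no overlap. Crush AAV-CNTF nerves had 52.0, 60.5, 80.8, 67.1 and 59.6 CPM, and replicate 4 reached the sham range. Flt1 was lower by a log2 difference of -0.79 ± 0.16 in crush AAV-null and -0.66 ± 0.16 in crush AAV-CNTF than in sham, while the 2 crush groups differed by 0.13 ± 0.16. Kdr (chromosome 5, 75932827 to 75978458, minus strand) was at 15.4, 19.0, 19.5, 20.6 and 15.8 CPM in sham and at 26.5, 22.2, 18.3, 27.6 and 24.8 CPM in crush AAV-null. It was at 27.1, 28.8, 31.2, 42.1 and 19.9 CPM in crush AAV-CNTF, where 4 of 5 libraries exceeded all sham libraries. Its log2 differences were 0.40 ± 0.18, 0.32 ± 0.18 and 0.72 ± 0.18, of which the last, crush AAV-CNTF against sham, passed the threshold.

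Within each library, the ratio of Flt1 to Kdr by FPKM gave the balance of the 2 receptor transcripts. It was 4.37, 6.00, 4.31, 4.78 and 5.92 in sham, 2.37, 1.54, 3.24, 1.62 and 2.15 in crush AAV-null, and 1.74, 1.68, 2.28, 1.31 and 2.64 in crush AAV-CNTF. Every sham library lay above every crush library, and the 2 crush groups overlapped. The ratio of Plvap to Cldn5, a gene of leaky vessels over a gene of the barrier, separated the libraries elsewhere. It was 0.530, 0.433, 0.862, 0.333 and 0.414 in sham and 0.997, 0.740, 0.663, 0.479 and 0.414 in crush AAV-null, and these groups overlapped. It was 2.98, 1.28, 1.48, 1.51 and 2.28 in crush AAV-CNTF, above 1 and above the other 10 libraries in all 5. All 4 genes of these ratios had nearly constant lengths over the libraries. Since the genes were chosen on these libraries the ratios are a description.

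**Figure D2:**
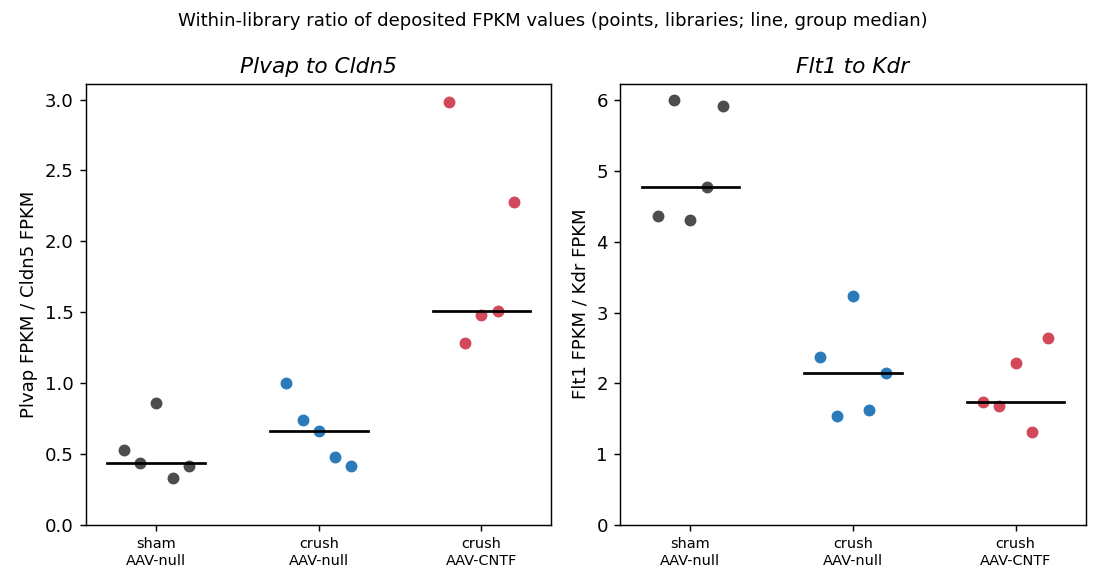
Ratio of Plvap to Cldn5 FPKM (left) and of Flt1 to Kdr FPKM (right) in each library (points) by group, with the group median as a line; vertical axes start at 0. The median Plvap to Cldn5 ratio was 0.433, 0.663 and 1.51 and the median Flt1 to Kdr ratio 4.78, 2.15 and 1.74 in sham, crush AAV-null and crush AAV-CNTF.

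Egfl7 encodes a matrix protein secreted by endothelium and hosts the microRNA gene Mir126a (chromosome 2, 26580014 to 26593120, plus strand). Its level was 11.6, 20.0, 12.2, 22.6 and 7.04 CPM in sham, an uneven group with replicates 3 and 5 high. Crush AAV-null nerves were uniform, at 9.29, 8.98, 9.53, 8.17 and 7.92 CPM, and crush AAV-CNTF nerves had 9.54, 12.6, 9.78, 14.1 and 12.4 CPM. The log2 differences were -0.74 ± 0.27, 0.41 ± 0.27 and -0.33 ± 0.26. The first passed the threshold in the fit over all libraries, and was lost in 9 of 15 leave-outs, by limma-voom (-0.53), with the replicate block (-0.65) and when only the 10 libraries compared were fitted. Those 9 were the fits without sham replicate 3 (-0.61) or 5 (-0.53), without any 1 of the 5 crush AAV-null replicates, and without crush AAV-CNTF replicate 3 or 6. In the second the groups did not overlap, by a margin in the last digit printed, and the difference did not pass. Gm20532, Mir126a, Mir126b and Agpat2 overlap the Egfl7 locus, and Egfl7 was the member whose estimated length varied most, and its counts are reported as uncertain.

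In crush AAV-null against sham, 2 of the 8 genes were called higher (Rhoj and Cdh5) and 2 lower (Flt1 and Egfl7) at an adjusted p under 0.05 by edgeR, and 4 were called in neither direction. Over all genes tested, 14.7% were called higher and 12.9% lower, and groups did not overlap for 20.6%, against 2 members (Cdh5 above, Flt1 below). In AAV-CNTF against AAV-null after crush 2 of 8 were called higher (Plvap and Rhoj) and 0 lower, where 6 genes in all, or 0.0423%, were called higher and 2, or 0.0141%, lower. Groups did not overlap for 1.55% of all genes and for 3 members (Plvap, Rhoj and Egfl7, all higher). In crush AAV-CNTF against sham 4 members were called higher (Plvap, Rhoj, Cdh5 and Kdr) and 1 lower (Flt1), where 17.0% and 14.3% of all genes were, and groups did not overlap for 23.0%, against 2 members (Plvap and Rhoj). The median log2 difference of the 8 genes was 0.29, 0.36 and 0.49 in the 3 comparisons, and that of all genes was at most 0.01. Since the members were chosen on these contrasts, nothing is read from their shares. The 3 comparisons share groups of libraries, so they are not independent of each other.

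**Figure D3:**
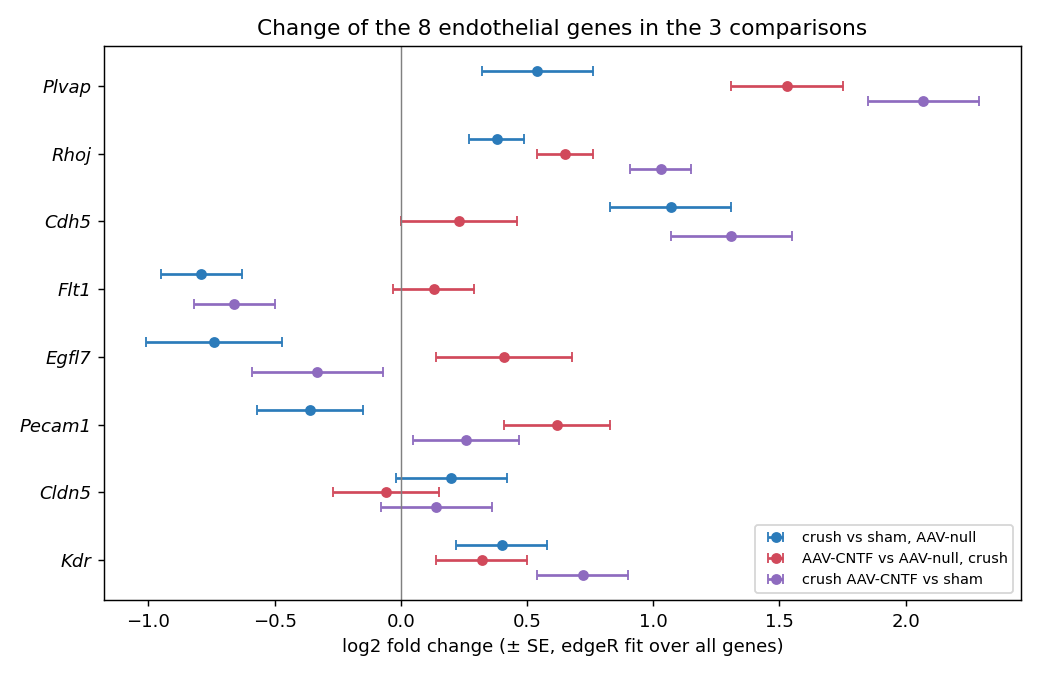
Log2 fold change (horizontal axis, points, with SE as bars) of the 8 genes (vertical axis) in the 3 comparisons, from 1 fit over 15 libraries and all genes. Plvap reaches 1.53 between the crush groups and 2.07 against sham, Flt1 lies at -0.79 and -0.66 against sham, and the 3 values of Cldn5 lie between -0.06 and 0.20.

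Besides Plvap and Rhoj, edgeR called 6 genes between AAV-CNTF and AAV-null after crush: Cd74, Cxcl9, H2-Q7 and H2-Eb1 were higher, and Fyn and Tmem132b lower. The 4 higher genes are known as interferon-induced or antigen-presenting genes, and 2 of them are set beside Plvap and Rhoj. Cxcl9, an interferon-induced chemokine, was at 55.1, 14.7, 648, 70.0 and 1.56 CPM in crush AAV-CNTF replicates 2 to 6, and Cd74, the invariant chain of class II antigen presentation, at 766, 439, 2039, 641 and 187 CPM. Both genes were named after their values were seen. In the same 5 libraries, replicates 2 to 6 in turn, Plvap was at 79.6, 34.9, 45.1, 56.1 and 53.0 CPM. Rhoj was at 146, 148, 140, 118 and 150 CPM. Whether Plvap or Rhoj varied with these or the other called genes among libraries was not tested.

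To read the members against other endothelial genes, the mean log2 CPM of the 28 other endothelial genes was subtracted in each library. Which cells of the nerve held those 28 transcripts was not tested, so their mean is not taken as endothelial RNA alone. That reference itself was 4.0 ± 0.20, 4.23 ± 0.26 and 4.38 ± 0.28 (SD, n = 5) in the 3 groups. Relative to it Plvap lay at -0.33 ± 0.47 in sham, -0.05 ± 0.29 in crush AAV-null and 1.32 ± 0.52 in crush AAV-CNTF, where the lowest library was at 0.87 and the highest of the other groups at 0.38. Rhoj lay at 2.11 ± 0.26, 2.24 ± 0.31 and 2.75 ± 0.41, and on this scale its crush AAV-CNTF libraries (2.09 to 3.11) overlapped the crush AAV-null ones (1.94 to 2.65). Flt1 went from 2.65 ± 0.19 to 1.60 ± 0.35 and 1.61 ± 0.23, with no sham library below 2.49 and no crush library above 2.11. Cdh5 lay at 2.21 ± 0.51, 3.09 ± 0.37 and 3.09 ± 0.44, and its sham and crush ranges overlapped. Pecam1 lay at 0.87 ± 0.21 in sham, 0.24 ± 0.19 in crush AAV-null and 0.69 ± 0.27 in crush AAV-CNTF, the crush AAV-null libraries (-0.09 to 0.39) being below all the others. Kdr and Cldn5 stayed near the reference, between -0.58 and 0.60 in every library. With Tie1, Erg, Esam and Emcn as the reference, the AAV-CNTF against AAV-null difference of Rhoj was 0.31 in place of 0.51, and that of Plvap 1.15 in place of 1.37. In that comparison Emcn itself was higher by 1.09 ± 0.35 (log2, SE), not past the threshold. Tie1, Erg and Esam were higher by 0.17, 0.18 and 0.13. On that reference the crush AAV-null libraries of Pecam1 (0.88 to 1.55) overlapped those of sham (1.36 to 2.26) and crush AAV-CNTF (1.24 to 1.99). Cdh5 there did not overlap between sham (2.54 to 3.66) and crush AAV-null (3.71 to 4.55), while crush AAV-CNTF (3.16 to 4.42) overlapped both. The separation of Pecam1 and the overlap of Cdh5 therefore depended on the reference.

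**Figure D4:**
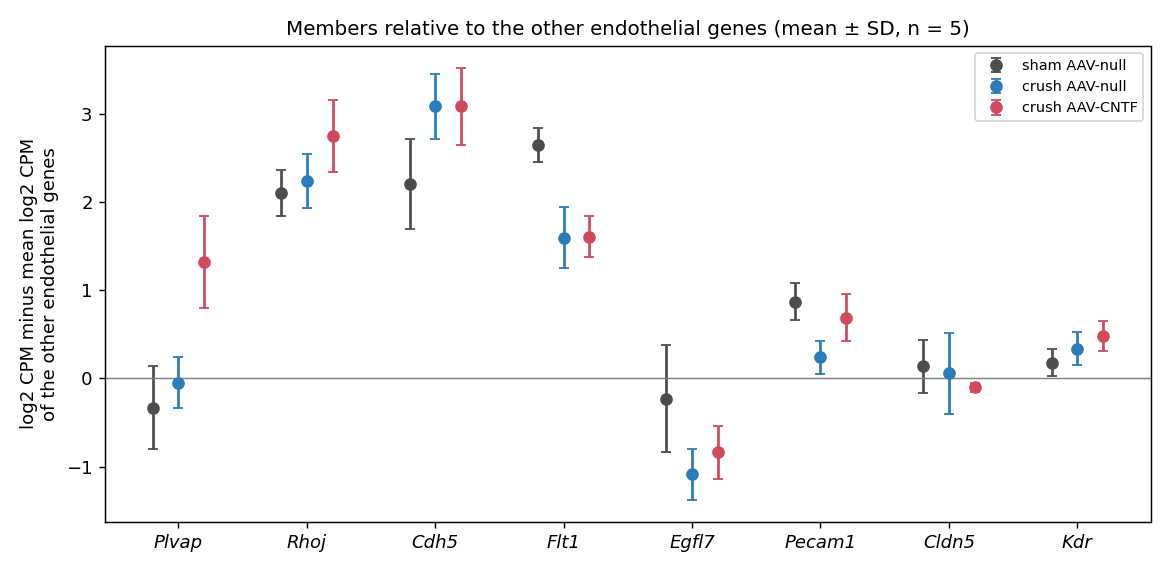
Log2 CPM of each gene minus the mean log2 CPM of 28 other endothelial genes (vertical axis) for the 8 genes (horizontal axis) by group, as mean ± SD of 5 libraries. Plvap stands at 1.32 in crush AAV-CNTF against -0.33 and -0.05 in the other groups, and Flt1 at 2.65 in sham against 1.60 and 1.61 after crush.

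Libraries of the same group also differ, and these differences were not used to choose the members. For each gene the deviation of log2 CPM from its group mean was correlated with the same deviation of the 28-gene reference over the 15 libraries, with permutation of libraries within groups and adjustment over the 8 genes; this test was chosen after the data were seen. Kdr passed the threshold (Pearson r = 0.80, adjusted permutation p = 0.00724; Spearman rho = 0.84, adjusted permutation p = 0.00528), and so did Pecam1 (r = 0.80, adjusted permutation p = 0.00724; rho = 0.83, adjusted permutation p = 0.00672). Replicate 2 of crush AAV-null and replicate 5 of crush AAV-CNTF lay farthest from the median of the reference, and without them r was 0.71 for Kdr and 0.72 for Pecam1. For Plvap r was 0.05 and rho 0.10 (adjusted permutation p = 0.866 and 0.751), and for Rhoj r was -0.21 and rho -0.21 (adjusted permutation p = 0.583 and 0.613). Flt1 (r = 0.53), Cldn5 (0.47), Cdh5 (0.33) and Egfl7 (0.27) lay between and did not pass. Whether the correlations of different genes differ from each other was not tested. Without crush AAV-null replicate 6, r was 0.81 for Kdr, 0.80 for Pecam1, 0.04 for Plvap and -0.24 for Rhoj.

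Among the 28 pairs of members 0 passed after adjustment by Pearson r or Spearman rho, and 3 had an unadjusted permutation p under 0.05 by r. The closest pair was Flt1 and Pecam1 (r = 0.72, rho = 0.66, adjusted permutation p = 0.113 and 0.267; r = 0.57 without 2 libraries). Plvap and Rhoj, the 2 genes higher with AAV-CNTF, showed no correlation past the threshold within groups (r = -0.20, rho = -0.06, adjusted permutation p = 0.843 and 0.929). Over all genes tested with a mean of at least 1 CPM, the deviations most like those of Plvap included those of Rgma (r = 0.83), Adcy5 (0.83), Col9a2 (0.82) and Galnt15 (0.81). Those most like Rhoj belonged to Pts (0.88), Rsl1d1 (0.86), Washc4 (0.85), Ssbp2 (0.83) and Tmem106b (0.83). These are among the highest of the correlations with all such genes over 15 libraries and are given as a description; none of these 9 genes was on an endothelial list used here.

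The pathways around the members were read from 9 vascular lists, with 133 of their 143 genes tested. In crush AAV-null against sham 33 rose and 15 fell by edgeR, with a median log2 difference of 0.10, against 14.7% and 12.9% of all genes tested and a median of 0.00. Of 15 sprouting genes 9 rose and 2 fell (Apln and Unc5b), with a list median of 0.66. Col4a1, a chain of the basement membrane's type IV collagen, went from 158 ± 39.4 to 456 ± 68.9 CPM (adjusted p = 8.11e-06), and Nid2, a basement membrane linker, from 20.0 ± 5.91 to 53.2 ± 12.7 CPM (adjusted p = 7.74e-05). Genes of collagen and nidogen are also transcribed by fibroblasts and pericytes. Of 14 VEGF and angiopoietin genes 3 rose and 1, Vegfb, fell, with 0 to 2 that fell over the leave-outs: 0 when replicate 2 of sham, or 3, 4 or 5 of crush AAV-null, was left out, and 2 when 2 or 6 of crush AAV-null was. Among the 3 were Nrp1, a VEGF co-receptor of KDR, from 33.9 ± 4.70 to 86.0 ± 18.0 CPM, and Plxnd1, the semaphorin 3E receptor that signals to RHOJ, from 66.0 ± 8.98 to 109 ± 6.16 CPM.

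The counts that follow are also of crush AAV-null against sham, where 14.7% of all genes tested were called higher and 12.9% lower. Of 21 genes on a list of transporters and other genes of barrier endothelium, 2 rose and 5 fell, with a list median of -0.51. Without crush AAV-null replicate 4 the count that fell was 8. Which cells of the nerve held these transcripts was not tested. Tfrc, the transferrin receptor, fell from 43.5 ± 7.58 to 21.8 ± 4.03 CPM (adjusted p = 0.000132) and Spock2, a proteoglycan gene, from 216 ± 25.6 to 128 ± 21.2 CPM (adjusted p = 3.65e-05). Slc40a1, the iron exporter ferroportin, rose from 3.18 ± 1.13 to 8.14 ± 2.26 CPM (adjusted p = 0.0245), a call lost when replicate 2 or 5 of sham, or 3 or 6 of crush AAV-null, was left out. Of 15 junction genes 4 rose, among them F11r and Lsr, of tight junctions, and 3 fell, among them Jup and Jam3; without crush AAV-null replicate 5 the count that rose was 2. Tjp1, which encodes ZO-1, was at 528 ± 46.0, 525 ± 39.5 and 534 ± 53.7 CPM. Of 18 Wnt and Norrin pathway genes 4 rose, among them Fzd6, and 2 fell: Reck, part of the WNT7 receptor complex, from 30.2 ± 3.34 to 15.9 ± 1.91 CPM, and Nkd1, a feedback inhibitor of the pathway, from 96.5 ± 18.0 to 50.2 ± 8.72 CPM.

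For the counts of this paragraph, 14.7% of all genes tested were called higher and 12.9% lower in crush AAV-null against sham. PLVAP sits on caveolae, and of 10 genes of the caveolar coat and related vesicle proteins 4 rose after crush with AAV-null and 1 fell. The count that rose was 2 without replicate 2, 5 or 6 of sham, or 3 or 6 of crush AAV-null, and Cavin1, 1 of the 4, was lost in 6 of 15 leave-outs. Cav1, the caveolin of endothelium, rose from 46.8 ± 7.99 to 80.8 ± 16.3 CPM (adjusted p = 0.00068), and Cavin2, a coat protein, fell from 63.7 ± 13.6 to 43.8 ± 9.88 CPM (adjusted p = 0.0184), a call lost when replicate 5 of sham, or 2 of crush AAV-null, was left out. Of 11 Notch genes 1 rose, Notch4, from 9.12 ± 1.54 to 27.7 ± 6.49 CPM; the count was 2 without sham replicate 3 or 4 or crush AAV-CNTF replicate 2, and 3 with the replicate block or only the 10 libraries compared. Of 6 leukocyte adhesion genes 2 rose: Icam1 from 14.1 ± 2.31 to 37.6 ± 6.93 CPM (adjusted p = 5.1e-06) and Vcam1 from 87.6 ± 21.1 to 165 ± 37.8 CPM (adjusted p = 0.00361). Of the 28 other endothelial genes 4 rose and 1 fell (2 without crush AAV-null replicate 2), with a median of 0.08. Beside the shares of all genes tested, 14.7% and 12.9%, nothing is read from the count that rose. Cd93, an endothelial lectin-like receptor, went from 28 ± 5.09 to 62.4 ± 15.6 CPM (adjusted p = 0.00014), Cd34 from 39.1 ± 6.48 to 73.0 ± 2.21 CPM (adjusted p = 0.000108) and Vwf stood at 179 ± 48.4 and 175 ± 56.0 CPM.

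Of 12 effectors of CDC42, the GTPase closely related to RHOJ, 5 fell after crush with AAV-null, with a median of -0.34. Over all genes tested 12.9% were called lower and 14.7% higher in that comparison. The call of a further effector, Cdc42ep5, as higher was lost in 11 of 15 leave-outs of 1 library, by limma-voom, with the replicate block and with only the 10 libraries compared. Cdc42bpa, the kinase MRCK alpha, fell from 442 ± 45.9 to 227 ± 22.7 CPM (adjusted p = 2.25e-07), and Pak1 from 141 ± 7.97 to 87.3 ± 18.1 CPM (adjusted p = 0.000296). Both effectors are transcribed in glia and neurons as well as in vessels.

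Between AAV-CNTF and AAV-null after crush, edgeR called 0 of the 133 vascular list genes in either direction. Of all genes tested 0.0423% were called higher and 0.0141% lower, so nothing is read from that 0. At an unadjusted p under 0.05 17 of the 133 were higher and 7 lower, where 3.94% of all genes tested were higher and 3.75% lower. DESeq2 called 0 higher and 1 lower (Spock2), and limma-voom called 0 in either direction. By sign 86 of the 133 were higher and 47 lower, with a median of 0.09. The other caveolar genes gave no unadjusted p under 0.05. Cav1 stood at 80.8 ± 16.3 CPM with AAV-null and 70.9 ± 13.1 CPM with AAV-CNTF, and Cd93 at 62.4 ± 15.6 and 89.7 ± 25.2 CPM (adjusted p = 0.464). Vcam1 stood at 165 ± 37.8 and 275 ± 116 CPM (adjusted p = 0.288), and Spock2 at 128 ± 21.2 and 92.4 ± 8.82 CPM (adjusted p = 0.143). In crush AAV-CNTF against sham 37 of the 133 vascular list genes rose and 16 fell, where 17.0% of all genes tested were called higher and 14.3% lower. Among the list genes that fell was Slco1a4, an organic anion transporter of barrier endothelium, from 27.3 ± 5.37 to 12.5 ± 2.91 CPM (adjusted p = 0.000343).

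**Figure D5:**
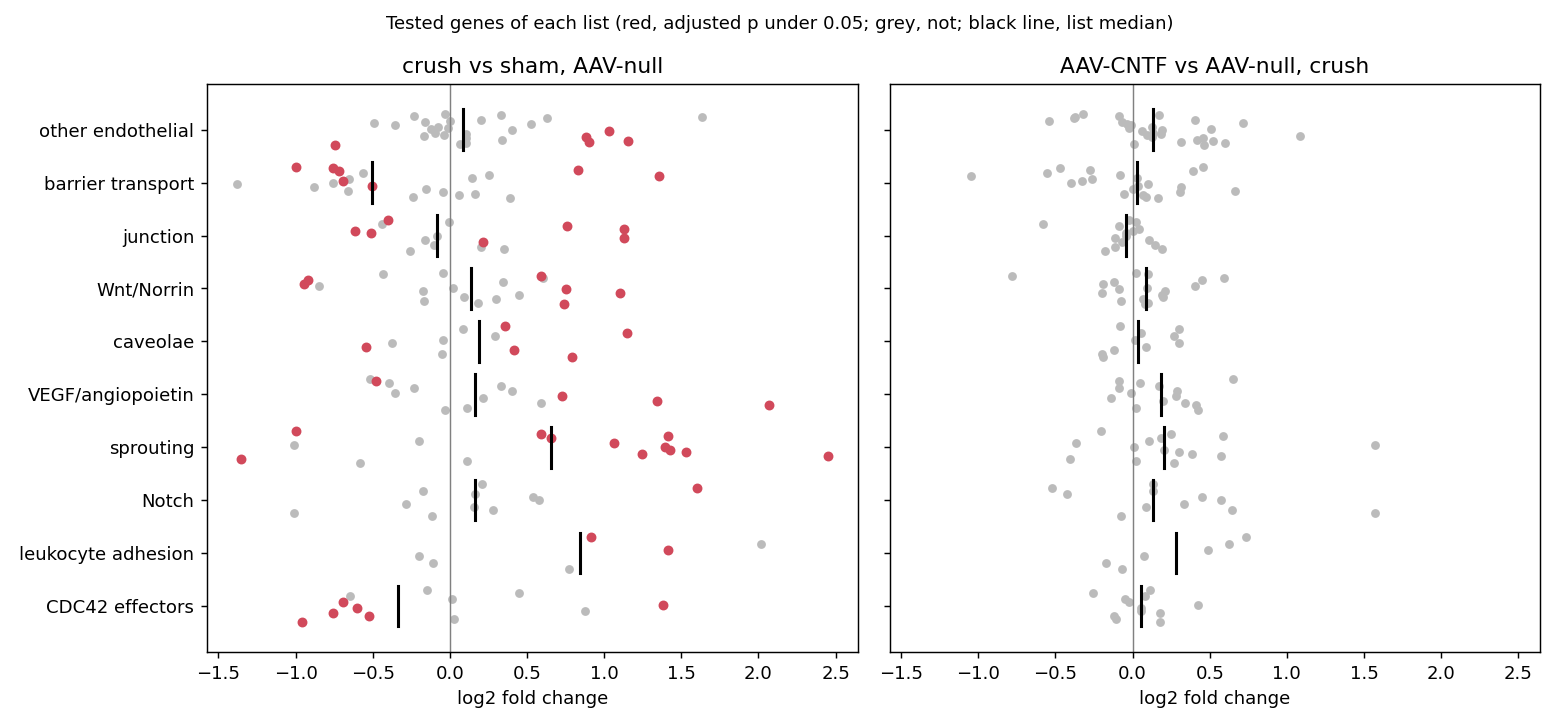
Log2 fold change (horizontal axes) of each tested gene of 9 vascular lists and a list of CDC42 effectors (rows) in crush AAV-null against sham (left) and AAV-CNTF against AAV-null after crush (right); red points have an adjusted p under 0.05 and black lines are list medians. On the left 33 vascular list genes are red to the right of 0 and 15 to the left; on the right none is red.

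Genes of other cells that the nerve could hold moved with crush, and their part in the members' values was not tested. Beside their counts in crush AAV-null against sham, 14.7% of all genes tested were called higher and 12.9% lower. Of 9 myeloid markers 8 rose and 0 fell in crush AAV-null against sham, their sum going from 588 to 788 CPM in sham to 2017 to 3120 CPM, and it was 1884 to 2575 CPM with AAV-CNTF. Of 10 fibroblast and meningeal markers 5 rose, the sum going from 1123 to 2631 CPM to 4183 to 7137 CPM, and it was 4081 to 10940 CPM with AAV-CNTF. Of 14 pericyte and smooth muscle markers 5 rose and 2 fell (0 to 2 that fell over the leave-outs, with 0 when replicate 2 of sham, or 3 or 4 of crush AAV-null, was left out), with sums of 541 to 739, 757 to 972 and 650 to 1181 CPM. Of 4 lymphatic markers Pdpn rose and Prox1 fell, both of which glia also transcribe. Of 3 platelet markers 2 rose (1 without crush AAV-null replicate 3), to sums of 16.0 to 28.6 CPM from 6.92 to 12.9 CPM, and 2 red cell genes gave no call, with sums of at most 12.2 CPM. Of 10 glial genes of the nerve 8 fell and 1 rose (Cspg4, which is also on the pericyte list). Between AAV-CNTF and AAV-null after crush, where Plvap differed 2.89-fold, the ranges of all 7 of these sums overlapped. For these lists edgeR called 0 genes, where 0.0423% of all genes tested were called higher and 0.0141% lower. At an unadjusted p under 0.05 there were 2 myeloid markers higher and 2 lower, and 1 fibroblast marker higher and 1 lower. There were also 2 pericyte markers lower and 1 glial gene lower (Cspg4, the same gene as on the pericyte list). At that level 3.94% of all genes tested were higher and 3.75% lower.

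Promoter sequence was at hand for 5 members, Rhoj, Flt1, Egfl7, Cldn5 and Kdr, and not for Plvap, Cdh5 or Pecam1. It came from a RefSeq table on GRCm38.p6, which gives 250 bases before to 50 after a gene's start. Shown are those of Rhoj, higher with AAV-CNTF, of Flt1, lower after crush, and of Cldn5, in which groups overlapped, written 5′ to 3′ on the gene's strand. They lie at chr12:75308063-75308362 (plus strand), chr5:147725962-147726261 (minus strand) and chr16:18776597-18776896 (plus strand), and capitals mark AGGAAGT, a motif of ETS factors, which are common in endothelial genes.
Rhoj: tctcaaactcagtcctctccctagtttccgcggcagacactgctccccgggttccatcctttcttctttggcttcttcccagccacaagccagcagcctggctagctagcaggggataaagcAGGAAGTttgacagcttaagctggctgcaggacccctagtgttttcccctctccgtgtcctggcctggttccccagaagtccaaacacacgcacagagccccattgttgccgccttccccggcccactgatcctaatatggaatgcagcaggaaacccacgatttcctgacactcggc
Flt1: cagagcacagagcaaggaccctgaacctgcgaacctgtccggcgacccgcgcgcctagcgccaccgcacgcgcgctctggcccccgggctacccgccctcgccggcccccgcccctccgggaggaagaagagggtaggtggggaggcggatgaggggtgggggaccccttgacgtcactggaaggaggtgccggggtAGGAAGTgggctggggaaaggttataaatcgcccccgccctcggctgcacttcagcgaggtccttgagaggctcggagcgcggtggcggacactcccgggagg
Cldn5: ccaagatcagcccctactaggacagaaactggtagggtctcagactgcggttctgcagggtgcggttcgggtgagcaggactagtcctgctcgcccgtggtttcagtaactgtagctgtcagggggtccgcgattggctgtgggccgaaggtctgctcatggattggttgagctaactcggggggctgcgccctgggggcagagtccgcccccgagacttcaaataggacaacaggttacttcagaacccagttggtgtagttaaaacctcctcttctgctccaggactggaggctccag
The motif AGGAAGT, searched on both strands and chosen after the sequences were seen, stood 128 bases before the start in Rhoj and 53 before it in Flt1. It was also present in Egfl7, in its windows 1 and 2 but not 3, and so in 3 of 5 members. That count is of genes with the motif in any window. Counted by window, the motif was in 9.35% of 32851 promoters of this length. TATAAA stood 31 bases before the start of Flt1 and is found in 13.6% of promoters. TTCNNNGAA, the site of STAT factors, which CNTF receptors activate, was in none of the windows of these 5 members and in 8.30% of all promoters. The promoter of Plvap was not searched. These matches describe the letters of the windows and nothing is drawn from them about binding.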

How the data were processed

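RNA of 15 optic nerves was sequenced. Per the labels' protocols, RNA came from RNeasy Micro columns with DNase treatment. The protocols name 2 library kits without saying which libraries each made. The submitters' processing notes name, with no order, Trimmomatic 0.32, STAR 2.5.3a, RSEM 1.2.31, R 3.2.3, DESeq2 and the build mm10; they name no gene annotation.

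The deposited table holds, per the file headers, the authors' RSEM expected counts and FPKM for each gene and library. It also holds the authors' log2 fold changes and adjusted p-values per comparison, used here only to check direction.

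Expected counts were rounded and tested with edgeR 4.0.16 (quasi-likelihood, TMM, filterByExpr, 1 mean per group, 15 libraries, 12 residual degrees of freedom) with Benjamini-Hochberg adjustment per comparison; the script was tested on simulated data. The log2 CPM used a prior count of 2. Alternatives were DESeq2 1.42.0, limma 3.58.1 (voom), other scalings and filters, the replicate block and leave-outs. Replicate numbers run from 2 to 6 in each group. Members and lists were chosen with earlier results of these data known. The text names all members, up to 3 genes per list and comparison past the threshold by size of change (the most abundant gene where none passed), and genes among the 5 most like Plvap and Rhoj; some that this rule covers are not reported here; genes outside this were named after their values were seen. List genes were matched by symbol or, for Cavin1, Cavin2, Cavin3 and Cdc42ep5, by gene ID. Promoters are from RefSeq, GRCm38.p6.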

Additional observations from a re-analysis of the deposited data

How the results depend on the processing

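No fold change past the threshold reversed its direction under the alternatives run; of the members below it, Cdh5 and Cldn5 between the crush groups did. Correlations that had not passed also changed sign without 2 libraries, such as Plvap with the endothelial reference (0.05 to -0.16), Plvap with Cdh5 (-0.17 to 0.25) and Cdh5 with Pecam1 (0.24 to -0.18). Kdr relative to the endothelial genes was 0.34 and 0.48 in crush AAV-null and crush AAV-CNTF, and 1.36 and 1.30 with Tie1, Erg, Esam and Emcn as the reference. Between AAV-CNTF and AAV-null after crush, the count of genes higher was 6, and it was 55 by DESeq2, 3 by limma-voom, 14 with the replicate block, 1 with only the 10 libraries compared, and 1 to 38 over the leave-outs. The count lower was 2, and it was 23 by DESeq2, 0 with only the 10 libraries compared, and 0 to 3 over the leave-outs. In the vascular lists DESeq2 called 1 gene lower. Of the members, 1 in place of 2 was called lower after crush by limma-voom, with the replicate block and with only the 10 libraries compared (1 to 2 over the leave-outs), Egfl7 being lost. Of the members higher with AAV-CNTF, 1 in place of 2 was called with only the 10 libraries compared (1 to 2 over the leave-outs), Rhoj being lost. Plvap passed there in all 15 leave-outs and all 8 other alternatives (1.35 to 1.65). These refits use the libraries on which Plvap was chosen. They describe how its call depends on single libraries and settings, and lend it no support. Plvap in crush AAV-null against sham, 0.54, passed in 3 leave-outs: without sham replicate 4 (0.64), and without crush AAV-null replicate 3 (0.63) or 6 (0.63). The cause of these changes was not tested. The replicate numbers are not taken as pairs: same-numbered libraries had correlations of -0.05 to 0.11 between groups, and the block left 2 members called higher with AAV-CNTF. Of 119 calls of genes covered by the naming rule, on lists or most like Plvap or Rhoj, 20 were lost at least once, in 109 of 2737 refits. Low counts limit Aplnr, Selp and the platelet and red cell genes.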

Other observations

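Vascular list genes that gave an unadjusted p under 0.05 and no adjusted call between AAV-CNTF and AAV-null after crush, in the fit over all genes by edgeR, are given here; at that level 3.94% of all genes tested were higher and 3.75% lower. Of 28 other endothelial genes 5 were higher at that level and 0 lower: Emcn, Robo4, Cd34, Adgrf5 and Cd93. Of 11 Notch genes 4 were higher (Dll4, Jag1, Heyl and Hes1) and 1, Notch4, lower. Jag1, a Notch ligand, was at 24.2 ± 6.92, 35.1 ± 4.33 and 47.9 ± 15.1 CPM in sham, crush AAV-null and crush AAV-CNTF, and Heyl, a Notch target of mural cells and vessels, at 19.3 ± 3.08, 28.8 ± 6.10 and 42.9 ± 21.2 CPM. Notch4 stood in the crush groups at 27.7 ± 6.49 and 19.3 ± 3.35 CPM. In crush AAV-CNTF against sham 5 of 11 Notch genes rose (Heyl, Notch4, Jag1, Hes1 and Rbpj), where 17.0% of all genes tested were called higher. In crush AAV-null against sham 1 rose (3 with the replicate block or only the 10 libraries compared), where 14.7% of all genes were called higher. The difference between those counts was not tested and both comparisons share the sham libraries. Of 21 genes on the barrier transport list 2 were higher and 5 lower at that level. Slco1a4 was at 18.4 ± 4.82 CPM with AAV-null and 12.5 ± 2.91 CPM with AAV-CNTF (adjusted p = 0.482).

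Crush AAV-CNTF replicate 2 had the most Plvap (79.6 CPM) and the least Cdh5 (98.2 CPM) and Flt1 (52.0 CPM) of its group. Replicate 5 had the most Cdh5 (310 CPM), Kdr (42.1 CPM), Cldn5 (25.2 CPM) and Egfl7 (14.1 CPM) and the least Rhoj (118 CPM).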
